A study of Homo sapiens with 19 samples.

Results

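The genes described here are AKAP8, its paralog AKAP8L and 5 further genes for A-kinase anchoring proteins, AKAP1, AKAP9, AKAP10, AKAP11 and AKAP13. They were chosen by gene symbol, and all 155 of the 218798 rows of the splicing tables that carry these symbols were used, which come to 71 of 100239 distinct events and 7 of 11998 genes. The study silenced AKAP8 in HMLE/Twist-ER cells, human mammary epithelial cells immortalized with Tert in which tamoxifen switches on a Twist-estrogen receptor fusion and with it an epithelial-mesenchymal transition (EMT). Untreated cells were the epithelial state (EPI), and cells given 20 nM tamoxifen were the mesenchymal state (MES). Control cells of both states expressed a non-specific shRNA, and knockdown cells stably expressed an shRNA against AKAP8, delivered in both cases by lentivirus. RNA-seq was made from 3 EPI control, 3 EPI shAKAP8, 3 MES control and 2 MES shAKAP8 cultures, and AKAP8 eCLIP, an assay that maps the RNA crosslinked to a protein, from 2 EPI and 2 MES cultures beside size-matched inputs.

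A-kinase anchoring proteins hold protein kinase A (PKA) at chosen places in the cell by binding its regulatory subunits, so that cyclic AMP acts there first. AKAP8 is a nuclear zinc finger protein that associates with chromatin and the nuclear matrix and also binds RNA. AKAP8L is its nuclear paralog and lies beside it on chromosome 19. AKAP1 sits on the outer mitochondrial membrane, AKAP9 on the Golgi apparatus and the centrosome, and AKAP10 binds both classes of PKA regulatory subunit. AKAP11 is found on vesicles and AKAP13 also activates the GTPase RhoA.

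Levels were taken from junction reads. For each gene, the reads that include or skip a cassette exon were summed over the skipped exon (SE) events present in all 3 comparisons and divided by a size factor for each library. The 7 genes rest on 26 such events, from 2 for AKAP8 and AKAP1 to 6 for AKAP9. Such a value follows the RNA of the gene only over those exons, and levels are therefore not compared between genes. In bulk RNA, fewer cells with a transcript and less transcript per cell cannot be told apart. Each library held between 31258177 and 40852217 junction reads over all SE events. A gene was called changed at an adjusted p under 0.05 with a log2 fold change beyond 1 in either direction, in a limma fit over all 9014 genes tested. Where the levels of groups are said not to overlap, this describes the libraries, and the share of all genes that did the same was not computed. As a check of the states, 4 of 4 epithelial markers tested were called lower in MES control cells, with CDH1 at a log2 fold change of -4.34, and 3 of 3 mesenchymal markers tested were called higher, with ZEB1 at 4.29. PTPRC and PECAM1, markers of blood and endothelial cells, had no value in these tables.

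AKAP8 itself was lower in every knockdown library than in every control library of the same state. Values of a group follow the order of its libraries in the tables. In EPI control cells AKAP8 had 243.8, 309.9 and 245.0 scaled junction reads (266 ± 37.8, SD, n = 3), and in EPI shAKAP8 cells 120.7, 98.8 and 124.8 (115 ± 14.0, SD, n = 3). In MES control cells it had 382.3, 195.8 and 247.7 (275 ± 96.2, SD, n = 3), and in MES shAKAP8 cells 108.3 and 121.9 (115 ± 9.62, SD, n = 2). The groups do not overlap in either state, while the knockdown libraries of the states overlap each other. The level left in knockdown cells was 43.4% of control in EPI and 43.6% in MES.

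The test across all genes called AKAP8 in MES only. The log2 fold change was -1.20 in EPI (SE 0.25, 95% interval -1.74 to -0.67, limma adjusted p = 0.0664) and -1.20 in MES (SE 0.28, 95% interval -1.80 to -0.60, limma adjusted p = 0.0322). The EPI value thus missed the adjusted cutoff, although its size was the same. EPI control and knockdown libraries at the same place in the list had correlated deviations. With a replicate block by that place, the EPI adjusted p was 0.05 in limma, again not called. The difference between the states was tested itself and was 0.01 on the log2 scale (95% interval -0.80 to 0.81, limma adjusted p = 0.996). Of all genes tested, 0.0111% passed in that test of the difference, and none of the 7 AKAP genes did, with 0 of them at an unadjusted p under 0.05, beside 6.55% of all genes. The MES call rested on few libraries. It was lost without the first MES control library (log2 fold change -0.93, limma adjusted p = 0.091), the third MES control library (-1.25, adjusted p = 0.0629), the first MES shAKAP8 library (-1.11, adjusted p = 0.179) or the second (-1.28, adjusted p = 0.125), always with the same direction.

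**Figure D1:**
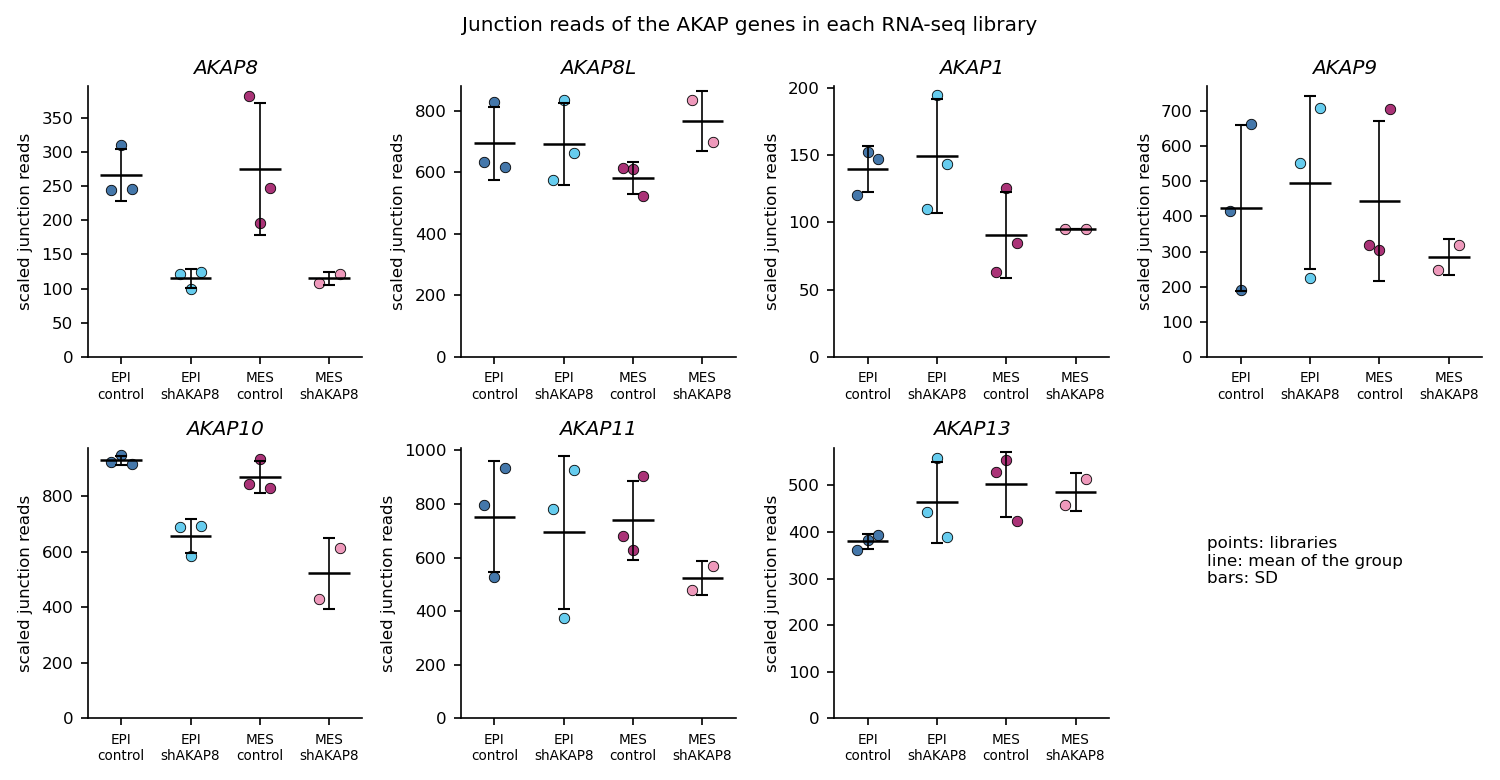
Scaled junction reads (vertical axis, from 0 in each panel) of the 7 AKAP genes in the 11 RNA-seq libraries, with 1 point per library, a line at the mean of each group and bars of 1 SD. AKAP8 and AKAP10 sit lower in every shAKAP8 library than in every control library of the same state, while AKAP8L does not in either state.

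AKAP8 had fewer reads in every row measured. In EPI cells, unscaled reads of the 6 AKAP8 rows were 23.2% to 49.3% of control on average, and in all 6 rows the groups did not overlap. Several of these rows share exons and reads, and how many of all events were apart in reads was not computed. In MES cells the 3 rows lay at 39.6% to 43.1% of control. They reach from exon 2, at chr19:15487787-15487825 (GRCh37, minus strand), to exon 12, at chr19:15471659-15471789, and the groups overlapped only at exon 2. Inclusion of exon 2 itself stayed between 94.0% and 100% in all 11 libraries when joined to exons 1 and 3.

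The EMT did not move AKAP8 in control cells within the precision of 3 libraries a group. The log2 fold change from EPI to MES control cells was 0.00 (95% interval -0.54 to 0.54, limma adjusted p = 0.998), and the MES control libraries spread on both sides of the EPI ones. This comparison and the knockdown comparisons share their control libraries, so their values are given side by side and not set against each other.

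AKAP8L, the paralog, had no called change in any comparison. EPI control libraries had 633.6, 828.4 and 618.3 scaled junction reads (693 ± 117, SD, n = 3) and EPI shAKAP8 libraries 574.7, 835.4 and 662.7 (691 ± 133, SD, n = 3). These overlap fully, with a log2 fold change of -0.01 (95% interval -0.41 to 0.39, limma adjusted p = 0.993). In MES control cells AKAP8L had 612.6, 612.0 and 522.8 (583 ± 51.7, SD, n = 3), and in MES shAKAP8 cells 834.7 and 697.4 (766 ± 97.1, SD, n = 2). Both MES knockdown libraries lay above all 3 MES controls. The log2 fold change there was 0.39 (SE 0.21, 95% interval -0.06 to 0.84), with an unadjusted p of 0.0806 in the limma fit and an adjusted p of 0.292. The difference between the knockdown effects of the states was 0.40 (95% interval -0.20 to 1.003, limma adjusted p = 0.819). The interval in EPI leaves room for a rise or fall of about the size seen in MES. In the EMT comparison AKAP8L was at -0.24 (95% interval -0.64 to 0.16, limma adjusted p = 0.376), with all MES control libraries below all EPI control libraries.

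AKAP10, which binds both classes of PKA regulatory subunit, was the other AKAP gene that was lower in every knockdown library. Its scaled junction reads were 921.9, 947.5 and 916.1 in EPI control cells (929 ± 16.7, SD, n = 3) and 689.7, 584.9 and 690.8 in EPI shAKAP8 cells (655 ± 60.9, SD, n = 3). In MES control cells they were 842.9, 933.3 and 830.5 (869 ± 56.1, SD, n = 3), and in MES shAKAP8 cells 431.3 and 612.5 (522 ± 128, SD, n = 2). No knockdown library reached the lowest control library of its state. How many of all genes tested were apart in this way was not computed. The remaining level was 70.4% of control in EPI (log2 fold change -0.51, 95% interval -0.86 to -0.15, limma adjusted p = 0.277) and 59.3% in MES (-0.75, 95% interval -1.15 to -0.36, limma adjusted p = 0.0378). In MES the gene thus passed the adjusted p but not the fold cutoff. Without the second MES shAKAP8 library it passed both (-1.01, adjusted p = 0.048), and over all libraries left out in turn the value ran from -1.01 to -0.50 with an adjusted p of up to 0.278. By event, unscaled AKAP10 reads were 67.1% to 72.6% of control over 5 rows in EPI and 45.9% to 80.6% over 7 rows in MES. The groups did not overlap in all 5 EPI rows and in 4 of the 7 MES rows, which compare 2 with 2 libraries. Several of these rows share exons and reads, and how many of all events were apart in reads was not computed. AKAP10 did not differ in the EMT comparison beyond the spread of the libraries (-0.10, 95% interval -0.45 to 0.26, limma adjusted p = 0.711).

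**Figure D2:**
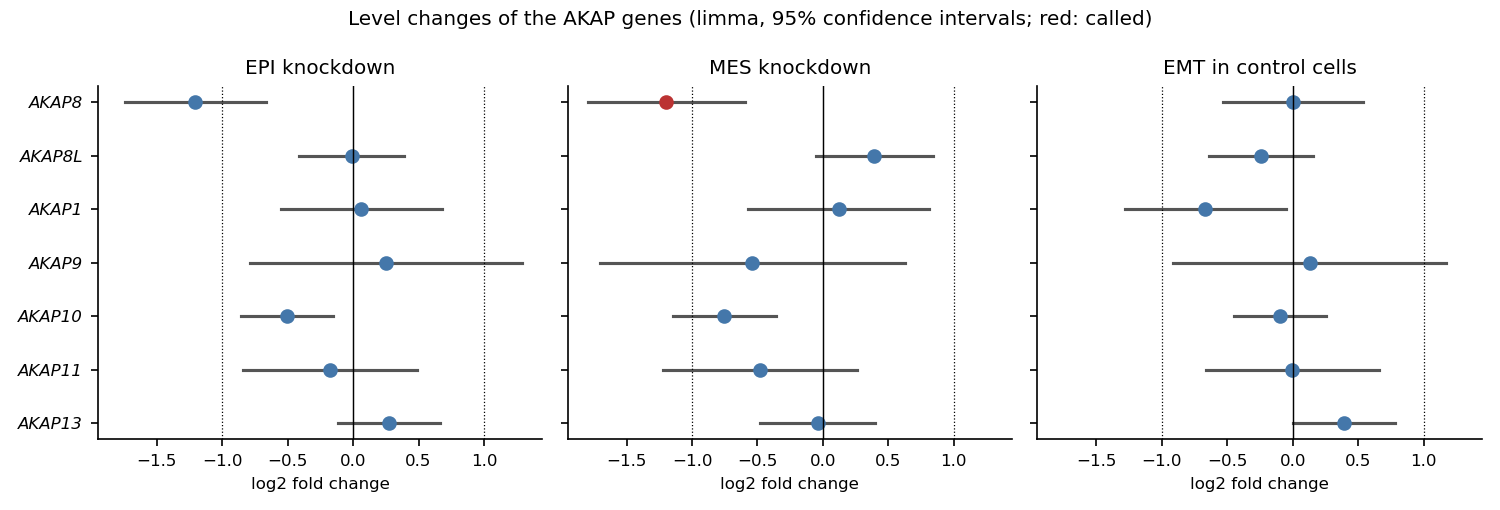
Log2 fold changes (horizontal axis) of the 7 AKAP genes in the EPI knockdown, the MES knockdown and the EMT of control cells, with 95% confidence intervals from limma as bars, dotted lines at the fold cutoff and called values in red. AKAP8 in the MES knockdown, at -1.20, is the only called value, and AKAP10 is the only other gene whose knockdown intervals lie below 0 in both states.

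AKAP1, the anchor of the outer mitochondrial membrane, had the lowest unadjusted p of the 7 genes in the EMT comparison. EPI control libraries had 120.5, 152.5 and 146.8 scaled junction reads (140 ± 17.1, SD, n = 3) and MES control libraries 62.7, 125.5 and 84.3 (90.8 ± 31.9, SD, n = 3). The groups overlap at 1 MES library, and the log2 fold change of -0.67 (95% interval -1.29 to -0.05) had an unadjusted p of 0.0363 in the limma fit and an adjusted p of 0.111. In knockdown cells AKAP1 was at 110.2, 194.6 and 143.6 in EPI and at 94.9 in both MES libraries. The log2 fold changes of knockdown were 0.06 in EPI and 0.12 in MES, with limma adjusted p-values of 0.989 and 0.864.

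AKAP13, the anchor that activates RhoA, was higher in all 3 MES control libraries than in all 3 EPI control libraries. Its scaled junction reads were 362.3, 382.7 and 393.9 in EPI control cells (380 ± 16.0, SD, n = 3) and 528.3, 553.9 and 423.7 in MES control cells (502 ± 69.0, SD, n = 3). The log2 fold change was 0.39 (95% interval 0.00 to 0.78), with an unadjusted p of 0.049 in the limma fit and an adjusted p of 0.136, so it was not called. In EPI shAKAP8 cells the gene was at 443.5, 558.9 and 389.1, and in MES shAKAP8 cells at 457.1 and 514.6. Knockdown and control libraries overlapped in both states, at log2 fold changes of 0.27 in EPI (limma adjusted p = 0.719) and -0.04 in MES (limma adjusted p = 0.935).

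AKAP9 and AKAP11 varied widely between the cultures of a group. AKAP9, of the Golgi apparatus and centrosome, had 414.5, 190.9 and 664.8 scaled junction reads in EPI control cells (423 ± 237, SD, n = 3), 553.7, 225.6 and 710.6 in EPI shAKAP8 cells, 319.5, 305.0 and 707.2 in MES control cells and 248.2 and 319.7 in MES shAKAP8 cells. Its coefficient of variation was 49.8% to 56.0% in the groups of 3. AKAP11, of vesicles, had 794.8, 526.4 and 933.7 in EPI control cells (752 ± 207, SD, n = 3), 782.6, 374.3 and 926.0 in EPI shAKAP8 cells, 682.2, 629.3 and 905.4 in MES control cells and 480.1 and 569.5 in MES shAKAP8 cells. The library listed second was the lowest of its EPI group for both genes, in control and knockdown alike, while the same libraries were the highest of their groups for AKAP8L and AKAP1. The log2 fold changes of AKAP9 were 0.25 in the EPI knockdown, -0.54 in the MES knockdown and 0.13 in the EMT, the widest of them with a 95% interval of -1.70 to 0.62. Compared at the same place in the list, the EPI shAKAP8 library was above its control for AKAP9 at all 3 places and below it for AKAP11 at all 3, and with a replicate block the EPI adjusted p was 0.776 for AKAP9 and 0.805 for AKAP11 in limma. For AKAP11 the fold changes were -0.18, -0.48 and 0.00, and both MES knockdown libraries of AKAP11 lay below all 3 MES controls (limma adjusted p = 0.442).

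Counted over the 7 genes, the knockdown of AKAP8 in EPI called 0 of 7, beside 0.189% of all genes tested (7 higher and 10 lower), and 2 of 7 had an unadjusted p under 0.05, beside 9.86% of all genes. In MES it called 1 of 7, AKAP8 itself, beside 2.27% of all genes (99 higher and 106 lower), with 2 of 7 at an unadjusted p under 0.05, beside 21.8%. The EMT called 0 of 7, beside 12.5% of all genes (485 higher and 645 lower), again with 2 of 7 at an unadjusted p under 0.05, beside 36.3%. The median log2 fold change of the 7 genes was -0.01, -0.48 and 0.00 in these comparisons, and that of all genes was -0.01, -0.01 and 0.01. AKAP8 is the target of the shRNA, so its place among the 7 in the knockdown comparisons was set by the design.

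Of the genes listed around the AKAPs, limma called none in any of the 3 comparisons. Of all genes tested, 9.86% in the EPI knockdown, 21.8% in the MES knockdown and 36.3% in the EMT had an unadjusted p under 0.05. Of 11 PKA subunits and inhibitors listed, 6 were tested, with median log2 fold changes of -0.11 in the EPI knockdown, -0.17 in the MES knockdown and 0.28 in the EMT, and 1, 0 and 3 of them had an unadjusted p under 0.05. PRKAR2A, the type II alpha regulatory subunit that most AKAPs bind, was higher in MES control than in EPI control cells at 0.72 (limma adjusted p = 0.00563) but under the fold cutoff, and stood at 0.41 (adjusted p = 0.416) and 0.29 (adjusted p = 0.368) in the EPI and MES knockdowns. PRKACA, the alpha catalytic subunit, was at 0.56 in the EMT (limma adjusted p = 0.0575), while PRKX of the same list was at -0.56 (adjusted p = 0.114). Of 22 other anchoring proteins, 13 were tested, with medians of 0.09, -0.12 and -0.13 and with 2, 2 and 1 at an unadjusted p under 0.05. NF2, known as merlin, was at 0.54 in the EPI knockdown (limma adjusted p = 0.221) and 0.63 in the MES knockdown (adjusted p = 0.0593), without overlap between the groups in either. EZR, or ezrin, which links actin to the membrane, was at -0.57 in the MES knockdown (limma adjusted p = 0.107). PALM2-AKAP2, which shares exons with AKAP2 so that part of their reads may be the same, was at 0.60 in the EMT (limma adjusted p = 0.0506).

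Adenylyl cyclases make cyclic AMP and phosphodiesterases break it down. Of 18 listed, 5 were tested, with medians of 0.18, 0.13 and -0.03 in the EPI knockdown, the MES knockdown and the EMT and with 1, 1 and 2 at an unadjusted p under 0.05. The shares of all genes at that p were 9.86%, 21.8% and 36.3%. The cyclase ADCY9 stood at 0.58 in EPI (limma adjusted p = 0.39) and 0.63 in MES knockdown cells (adjusted p = 0.152). In the EMT, the cyclase ADCY6 was at 0.76 (limma adjusted p = 0.0265) and the phosphodiesterase PDE7A at -0.75 (adjusted p = 0.0366), both under the fold cutoff. Of 10 nuclear partners of AKAP8 and AKAP8L, 9 were tested, and their medians were 0.01, -0.18 and -0.05. In the EMT 3 of these 9 passed the adjusted p upward and 2 downward without reaching the fold cutoff, beside 11.5% and 12.3% of all genes tested. The splicing factor HNRNPM was at 0.70 (limma adjusted p = 0.00785), the RNA helicase DDX5 at 0.79 (adjusted p = 0.0145) and DPY30, a subunit of histone methyltransferase complexes, at -0.64 (adjusted p = 0.00741). In the knockdown comparisons none of the 9 passed the adjusted p in either state. At an unadjusted p under 0.05 there were 0 in EPI and 1 in MES, beside 9.86% and 21.8% of all genes. Of all genes tested, 0.0888% passed the adjusted p upward and 0.166% downward in EPI, and 2.06% and 2.1% in MES.

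The genes whose levels followed AKAP8 most closely were ranked by Pearson's r over the 11 libraries, among 7449 genes with enough reads. The highest were SDCBP (r = 0.946), RANBP3 (0.945), OXSR1 (0.938), GTPBP4 (0.936) and ZFP91 (0.928). These are descriptions with no test, and the points share their libraries and the split into control and knockdown. ZFP91, for example, had 288 ± 40.3 scaled junction reads in EPI control cells (SD, n = 3), 124 ± 29.6 in EPI shAKAP8 cells (n = 3), 268 ± 34.2 in MES control cells (n = 3) and 99.3 ± 32.0 in MES shAKAP8 cells (n = 2). Among the AKAP genes r to AKAP8 was 0.81 for AKAP10, 0.37 for AKAP11, 0.04 for AKAP9, -0.28 for AKAP13, -0.34 for AKAP1 and -0.37 for AKAP8L.

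Splicing of the AKAP genes was measured as percent spliced in (PSI), the share of transcripts that include a segment, from inclusion and skipping reads corrected for the length of each form. An event was called at a false discovery rate (FDR) under 0.05 and a change in PSI (∆PSI) of at least 10 percentage points, in a quasi-binomial test whose dispersion was moderated with limma. Knockdown of AKAP8 called 0 of 51 AKAP events tested in EPI, beside 0.0446% of all events, and 0 of 49 in MES, beside 0.0506%. At an unadjusted p under 0.05 there were 2 of 51 and 2 of 49, beside 3.72% and 3.17% of all events. The alternative test, limma on the logit of PSI, called 0 of all 65008 events in EPI and 0 of all 59288 in MES. Its 0 for the AKAP events therefore says nothing about these genes. The EMT called 2 of 47, beside 1.52% of all events, and both were cassette exons with more inclusion in MES, in AKAP9 and AKAP13.

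These exons are printed because they are the only AKAP segments called in any comparison. Capitals mark the exon and lower case the 20 intronic bases on each side, 5′ to 3′ on the transcript strand of GRCh37. The AKAP9 exon is exon 19 of the reference transcript, at chr7:91671360-91671500 on the plus strand, and the AKAP13 exon is exon 12, at chr15:86201768-86201821 on the plus strand. Both are coding, 141 and 54 bases long and thus multiples of 3, and both are bordered by AG before and GT after.
AKAP9 exon: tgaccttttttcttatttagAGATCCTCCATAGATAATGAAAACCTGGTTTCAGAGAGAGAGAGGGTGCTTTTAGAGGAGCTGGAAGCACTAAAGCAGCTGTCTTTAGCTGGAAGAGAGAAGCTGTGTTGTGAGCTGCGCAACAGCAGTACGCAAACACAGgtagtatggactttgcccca
AKAP13 exon: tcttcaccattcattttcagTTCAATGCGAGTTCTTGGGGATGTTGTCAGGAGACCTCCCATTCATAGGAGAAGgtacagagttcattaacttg

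The AKAP9 exon went from a minor to the major form. In EPI control cells its PSI was 39.2%, 15.4% and 39.7% (31.4% ± 13.9, SD, n = 3), from 40, 8 and 54 inclusion reads beside 31, 22 and 41 skipping reads. In MES control cells it was 71.4%, 91.1% and 94.4% (85.7% ± 12.4, SD, n = 3), from 55, 41 and 102 inclusion reads beside 11, 2 and 3 skipping reads. Every MES control library lay above every EPI control library, and ∆PSI was 54.2 percentage points (FDR = 4.39e-07 in the limma-moderated test). With a replicate block by place in the list the call was lost (FDR = 0.0923). Knockdown cells kept the order of the states, with PSI of 23.1%, 55.2% and 44.2% in EPI shAKAP8 and of 87.8% and 85.0% in MES shAKAP8. Within a state, knockdown and control libraries overlapped (∆PSI of 9.38 points in EPI and 5.11 in MES, FDR = 0.91 and 0.812 in the limma-moderated test).

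The AKAP13 exon also rose with the EMT. Its PSI was 14.7%, 25.9% and 22.6% in EPI control cells (21.1% ± 5.77, SD, n = 3) and 74.6%, 43.5% and 50.7% in MES control cells (56.2% ± 16.3, SD, n = 3). The groups do not overlap, and ∆PSI was 35.2 percentage points (FDR = 6.57e-05 in the limma-moderated test). In knockdown cells it was 40.8%, 14.5% and 33.1% in EPI and 81.1% and 54.2% in MES, which overlaps the controls of each state. The AKAP13 call was lost in limma on the logit of PSI (FDR = 0.149) and with a replicate block by place in the list (FDR = 0.219). The cassette exon next to it, 66 bases at chr15:86205619-86205684, had a PSI of 12.9%, 4.28% and 5.88% in EPI control cells and of 28.7%, 3.81% and 14.9% in MES control cells when joined to the same outer exons, so the groups overlapped there.

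**Figure D3:**
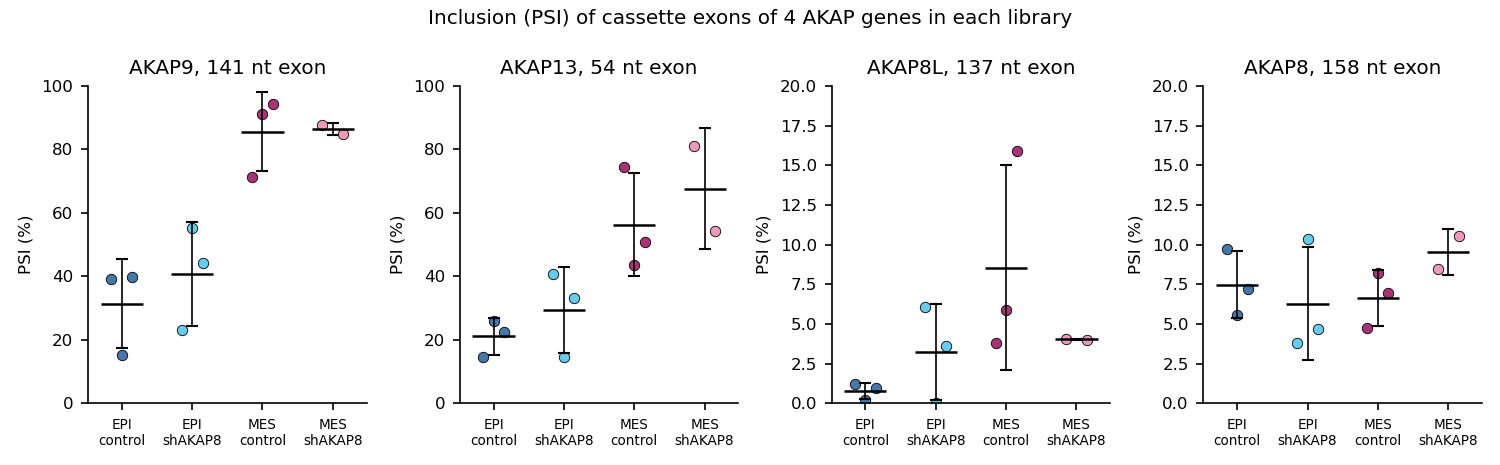
PSI in percent (vertical axis, 0 to 100 for AKAP9 and AKAP13 and 0 to 20 for AKAP8L and AKAP8) of 4 cassette exons in the 11 RNA-seq libraries, with 1 point per library, a line at the mean and bars of 1 SD. The AKAP9 and AKAP13 exons sit higher in every MES control library than in every EPI control library, the AKAP8L exon does so at a low level, and the AKAP8 exon overlaps between EPI and MES control.

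AKAP8 and AKAP8L each carry a cassette exon that is absent from the reference protein and whose length is not a multiple of 3. In AKAP8 it is 158 bases long and lies in intron 8, at chr19:15479878-15480035 on the minus strand. The annotation holds it in 3 transcripts, 0 of them protein-coding and 2 of them marked for nonsense-mediated decay, the pathway that degrades RNA with an early stop codon. Its PSI was 9.72%, 5.54% and 7.20% in EPI control, 3.80%, 10.3% and 4.70% in EPI shAKAP8, 4.74%, 8.24% and 6.98% in MES control and 8.50% and 10.6% in MES shAKAP8 cells. Neither the knockdown nor the EMT moved it beyond the spread between libraries in EPI or in control cells, and in MES both knockdown libraries lay just above both controls of that table (∆PSI 3.05 points, FDR = 0.812 in the limma-moderated test).

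In AKAP8L the exon is 137 bases long and lies in intron 9, at chr19:15509441-15509577 on the minus strand, in 8 annotated transcripts, of which 0 are protein-coding and 6 are marked for nonsense-mediated decay. It was more included in MES control cells, at 3.83%, 5.88% and 15.9% (8.54% ± 6.46, SD, n = 3), than in EPI control cells, at 1.19%, 0.208% and 0.946% (0.782% ± 0.512, SD, n = 3). The EPI values rest on 4, 1 and 3 inclusion reads and the MES values on 16, 22 and 31. The groups do not overlap and the FDR was 3.17e-05 in the limma-moderated test, but ∆PSI was 7.75 points and so under the cutoff. In knockdown cells it was at 6.05%, 0% and 3.63% in EPI (21, 0 and 11 inclusion reads) and at 4.07% and 4.02% in MES. The EPI knockdown libraries thus lay on both sides of the controls, with an unadjusted p of 0.0109 and an FDR of 0.761 in the limma-moderated test. The intron between exon 9 and this exon, at chr19:15509441-15510221 with the exons at its ends, was set only beside its splicing to this exon. On that ratio its retention was 80.0%, 91.3% and 95% in EPI control and 54.6%, 60% and 44.4% in MES control cells. That is a ∆PSI of -35.8 points without overlap, on 29.5 reads a library on average and not called (FDR = 0.183 in the limma-moderated test). The ratio leaves out exon 9 joined directly to exon 10, with 166, 240 and 157 reads in EPI control cells. Beside that form, the unspliced segment had a mean PSI of 5.79% in EPI control and 9.51% in MES control cells (FDR = 0.459 in the limma-moderated test), with overlap. These events share junction reads, so they are not independent.

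Further events of AKAP8L, AKAP10 and AKAP11 leaned with the EMT without being called. Retention of a short intron within AKAP8L exon 4, at chr19:15514286-15514526, was 72.7%, 78.2% and 77.8% in EPI control and 87.3%, 89.0% and 80.8% in MES control cells (FDR = 0.335 in the limma-moderated test). The 124-base exon 7 of AKAP10, at chr17:19844200-19844323, was included at 98.4%, 97.5% and 99.1% in EPI control and 90.2%, 94.7% and 87.2% in MES control cells (FDR = 0.112 in the limma-moderated test). The 161-base exon 12 of AKAP11, at chr13:42891664-42891824, was at 100% in all 3 EPI control libraries, with 0 skipping reads, and at 92.3%, 94.5% and 98.3% in MES control libraries. Its FDR was 0.0189 in the limma-moderated test, but its ∆PSI of -4.96 points was under the cutoff. Each of these separated the control libraries of the states without overlap in PSI. In all, 9 of the 47 AKAP events tested were apart in this way, beside 12.6% of all events tested.

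With AKAP8 silenced, the 84-base exon 10 of AKAP11, at chr13:42887183-42887266, had groups that did not overlap in EPI and was the 1 AKAP event of 51 tested to do so, beside 6.76% of all events. Its PSI was 48.7%, 46.0% and 53.3% in EPI control and 58.6%, 55.7% and 65.3% in EPI shAKAP8 cells, and it was not called. In MES its libraries overlapped, at 34.7% and 47.2% in the controls of that table and 62.6% and 39.0% after knockdown. In MES, 6 of 49 AKAP events did not overlap, beside 24.1% of all events. The one with the largest ∆PSI, the 135-base exon 6 of AKAP11 at chr13:42871184-42871318, was included at 95.9% and 94.5% in MES control and at 78.6% and 90.2% in MES shAKAP8 cells. That is a ∆PSI of -10.8 points, not called (unadjusted p = 0.0352, FDR = 0.812 in the limma-moderated test). In EPI the groups overlapped at this exon. The AKAP1 event with the smallest p, exon 5 at chr17:55189852-55189979, was included at 99.2% to 100% in every EPI library (unadjusted p = 0.451 in the limma-moderated test). The MES knockdown tables hold 2 control and 2 knockdown libraries, and an exact permutation test of a single event there could not give a two-sided p below 0.333. With 3 against 3 libraries the smallest is 0.1.

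AKAP8 eCLIP peaks were found over AKAP8 itself and, in EPI only, over AKAP8L. A peak was counted if it overlapped the gene on the same strand by at least 1 base. Of 24637 peaks in EPI, 11 lay over AKAP8 and 2 over AKAP8L, and of 30390 in MES, 14 lay over AKAP8. None lay over AKAP1, AKAP9, AKAP10, AKAP11 or AKAP13 in either list. Thus 2 of the 7 genes had a peak in EPI, beside 22.7% of the genes tested for level, and 1 of 7 in MES, beside 15.8%. As many peaks as AKAP8 or more were held by 379 genes in EPI (4.52%) and 308 in MES (3.67%). The lists hold peaks that the authors merged over the 2 cultures of a state, so there is no replicate error for a peak, and a difference between states was not tested.

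AKAP8 and AKAP8L are neighbours on the minus strand of chromosome 19. AKAP8 spans chr19:15464196-15490626 and AKAP8L chr19:15490861-15529952, with 234 bases between them. Every AKAP8 peak was intronic. Intron 1, of 2698 bases at chr19:15487826-15490523, is 10.2% of the gene, and it held 9 of the 11 peaks in EPI and 14 of the 14 in MES. The share of all peaks that lie in first introns was not computed, so whether this place is particular to AKAP8 is not known. Some peaks nest in each other, and merged they make 9 sites in EPI, 7 of them in intron 1, and 11 sites in MES, all in intron 1. Peaks covered 18.8% of intron 1 in EPI, 24.9% in MES and 29.8% in either state. Of the peaks, 8 of 11 in EPI and 9 of 14 in MES shared at least 1 base with a peak of the other state, which is 6 sites in each. This counts all peaks as deposited, and some of those shared lie below the cutoffs in the methods. The EPI peaks outside intron 1 were at chr19:15485174-15485263 in intron 3 and at chr19:15479356-15479460 in intron 8. The intron 3 peak had a −log10 p of 2.38, below the cutoff in the methods. The intron 8 peak lies 417 bases downstream of the 158-base cassette exon, and no MES peak was listed in intron 8.

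**Figure D4:**
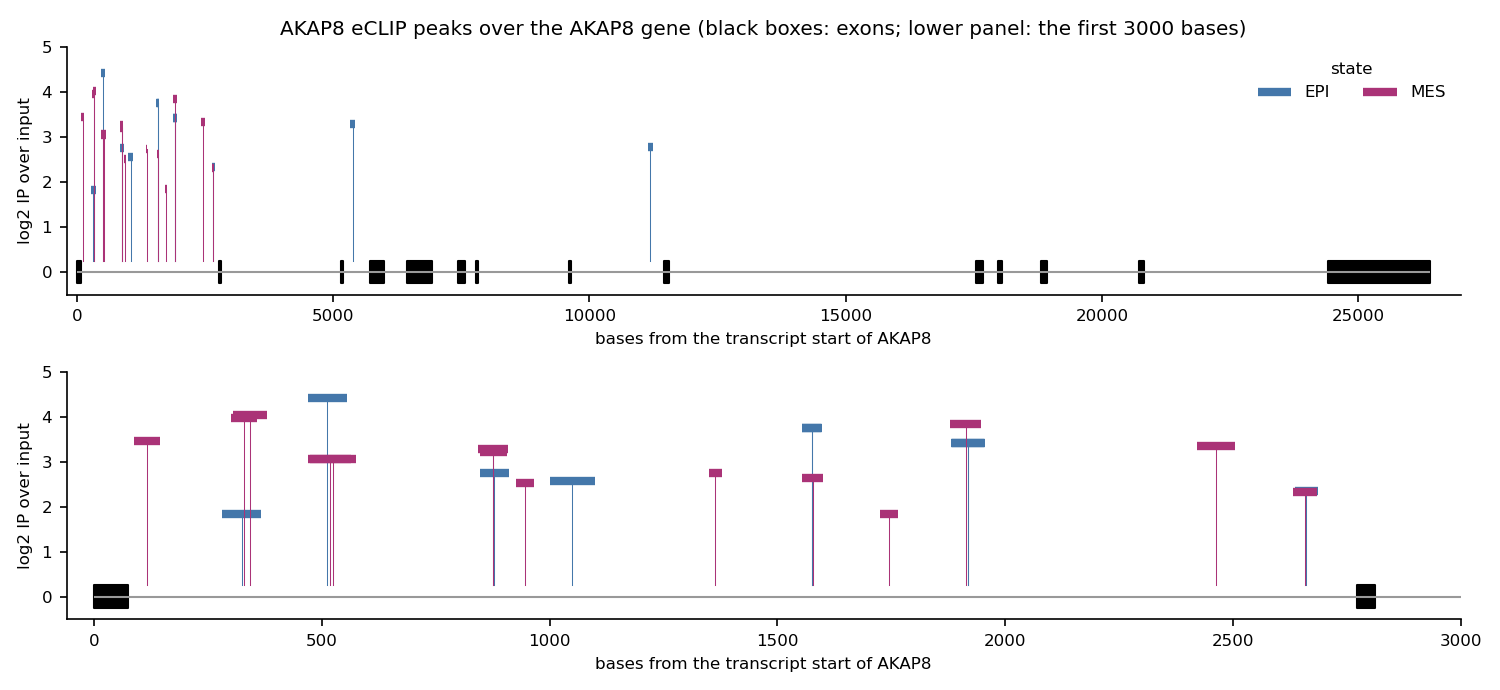
AKAP8 eCLIP peaks over the AKAP8 gene, with the distance from its transcript start in bases (horizontal axis) and the log2 of IP over input (vertical axis) of each peak, in EPI and MES, and black boxes for exons. The upper panel spans the gene and the lower its start, where 9 of 11 EPI peaks and all 14 MES peaks lie between exons 1 and 2.

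The strength of a peak is the log2 ratio of immunoprecipitated (IP) over input reads, as deposited. Over AKAP8 it ran from 1.83 to 4.42 in EPI (median 3.29) and from 1.84 to 4.02 in MES (median 3.13). All peaks had medians of 3.67 in EPI and 3.36 in MES, so that the AKAP8 medians lay below those of the lists, while single AKAP8 peaks lay above them. The strongest in EPI was at chr19:15490043-15490129, 512 bases from the transcript start, with a log2 ratio of 4.42 and a −log10 p of 6.37. In MES it was at chr19:15490218-15490292, 343 bases from the start, at 4.02 and 9.40. Each region carried a peak in the other state too. The EPI peak region held MES peaks of 3.06 and 3.05, and the MES peak region an EPI peak of 1.83. That EPI peak had a −log10 p of 2.20 and so passed neither of the cutoffs in the methods given below. Over AKAP8L the stronger of the 2 EPI peaks lay in intron 4, at chr19:15513413-15513476, with a log2 ratio of 3.75 and a −log10 p of 3.79. The other was at 2.12. At the cutoffs in the methods, a log2 ratio of at least 2 and a −log10 p of at least 3, 8 AKAP8 peaks and 1 AKAP8L peak remained in EPI and 11 AKAP8 peaks in MES.

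The RNA under the strongest peak of each gene and state is printed because runs of G stand out in all 3. Each line is the 121 bases centred on the peak, on the minus strand of GRCh37 and 5′ to 3′, at chr19:15490026-15490146, chr19:15490195-15490315 and chr19:15513384-15513504 in this order. Capitals mark runs of at least 3 G.
AKAP8 intron 1, EPI: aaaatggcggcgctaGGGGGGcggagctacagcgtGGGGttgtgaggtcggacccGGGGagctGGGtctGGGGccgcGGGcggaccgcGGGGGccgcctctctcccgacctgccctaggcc
AKAP8 intron 1, MES: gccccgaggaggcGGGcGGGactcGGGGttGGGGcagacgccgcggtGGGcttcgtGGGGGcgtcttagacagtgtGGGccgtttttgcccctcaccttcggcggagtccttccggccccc
AKAP8L intron 4, EPI: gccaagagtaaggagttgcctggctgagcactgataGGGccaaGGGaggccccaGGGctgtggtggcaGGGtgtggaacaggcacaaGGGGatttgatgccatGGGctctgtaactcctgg

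Both AKAP8 windows held 7 runs of G and the AKAP8L window 6. Over all AKAP8 peaks the 121-base windows held 2 to 7 runs in EPI (median 6) and 1 to 8 in MES (median 3.5). Nearly every peak in the lists held such a run. Of these, 99.9% in EPI and 99.8% in MES held at least 1 run GGG on the transcript strand in windows of that length, with medians of 7 and 6. On the same strand, runs CCC were in 79.3% and 84.9% of the windows, with medians of 2 and 2. Runs of G also stood where no peak was listed. Intron 1 of AKAP8 held 76 runs, or 28.2 per kb, while intron 4 of the same gene held 44.9 per kb and intron 6 held 41.1 per kb with no peak listed. In AKAP8L, intron 4 with both peaks held 29.9 runs per kb, and intron 5 held 37.7 per kb without a peak. A run of G in a window is a description of its letters, not a binding site.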

How the data were processed

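RNA-seq libraries were poly(A) selected and paired-end. Per the study's methods, the authors aligned reads to GRCh37 with STAR and counted them per splicing event with rMATS. The 15 tables list the inclusion and skipping reads of a group's libraries together, and these counts as deposited were the starting point. The authors' p-values, FDR, PSI differences and 30 columns of PSI per library were not used, nor was their gene table of log2 fold changes (featureCounts 1.5.0, DESeq2), which gives no gene symbols. In the eCLIP lists, each peak has a log2 ratio of IP to input and a −log10 p, both used as the authors deposited them after merging 2 replicates.

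The members and gene lists were chosen with earlier results of these data known. The text names every member, every called member event or else that with the smallest p, up to 3 genes of a list with the smallest p, the 5 genes most like AKAP8, and the strongest peak per gene and state. Other events were chosen after their values were seen.

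Summed SE junction reads, scaled with median-of-ratios size factors, were kept if at least 10 in at least 2 libraries (9014 of 9209 genes), and tested on log2(value + 1) with limma 3.58.1 in R 4.3.3 (trend, 1 mean per group, all 11 libraries, Benjamini-Hochberg over all genes). A read that supports several events is counted in each. Control reads were identical in 100% of the SE events that tables of different comparisons share. Events with at least 20 junction reads a library on average entered a quasi-binomial F test that set inclusion beside skipping reads, its dispersion moderated by limma's squeezeVar and its p adjusted within event type and comparison. Only the EMT tables hold the third MES control. Both procedures were checked on simulated data. Replicates are separate cultures per the methods, but the tables number no library, so each is named by its place in the list. EPI control and knockdown libraries at the same place had correlated deviations over genes (r = 0.28, 0.58 and 0.49), which counts as pairing. The MES knockdown (0.17 and 0.02) and the EMT (0.08, 0.18 and 0.27) did not meet that rule.

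Alternatives changed the pseudocount to 10, the scale, the low filter, the events summed, the samples in the fit, the read minimum, the ∆PSI cutoff, the dispersion model, the test, the replicate block, the peak cutoffs and each library in turn. Dividing inclusion reads by their length ratio, the peak cutoffs of the methods and merging peaks into sites were chosen after seeing the data. Positions come from Gencode lifted to GRCh37 and sequences from that genome, with Python 3.11.15, pandas 2.3.3, numpy 2.4.6, scipy 1.17.1 and matplotlib 3.10.9. Protein sequences were not used here.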

Additional observations from a re-analysis of the deposited data

How the results depend on the processing

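No called value changed direction, and 508 recomputed values kept their side of the threshold or stayed close to the value given, while 7 counts moved by more than 1.5 times, 7 calls were lost and 1 was gained. The AKAP8 level in the MES knockdown kept its call in all alternatives that used every library (log2 fold change -1.32 to -1.14, limma adjusted p from 0.0253 to 0.0368), but ran from -1.41 to -0.93 with 1 library left out (adjusted p from 0.036 to 0.179), and the count of AKAP genes called there from 0 to 1. In EPI it was never called, at -1.27 to -1.09 with 1 library left out and an adjusted p of up to 0.268. The replicate block gave AKAP8 -1.21 with an adjusted p of 0.05 in EPI, again not called, while calls over all genes rose from 17 to 33. With the block, AKAP8 in MES was at -1.21 (adjusted p = 0.0311), and events called in the EMT fell from 2 to 0, with an FDR of 0.0923 for the AKAP9 exon and 0.219 for the AKAP13 exon. There the libraries share only a place in the list. Among the AKAP genes and their events the block changed no other call, while calls over all events did change. Limma on the logit of PSI called 1, and leaving out 1 library in turn gave 2 to 3. With peaks held to a log2 of at least 3 and a −log10 p of at least 5, 3 of 13 remained in EPI and 9 of 14 in MES. At the cutoffs of the methods it was 9 and 11, and merged into sites 11 and 11. Over all genes and settings, 2 to 38 genes were called in the EPI knockdown, 62 to 309 in the MES knockdown and 936 to 1250 in the EMT, and 0 to 102, 0 to 240 and 312 to 1394 events. The causes of these changes were not tested. Depth limits the rare exons most, since the EPI values of the AKAP8L exon rest on 1 to 4 inclusion reads, and AKAP8 and AKAP1 levels rest on 2 events each.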

Other observations

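Several AKAP peaks carry the same pair of values. In EPI the peaks at chr19:15488999-15489044 and chr19:15489001-15489043 in AKAP8 intron 1 and the peak at chr19:15513413-15513476 in AKAP8L intron 4 all have a log2 ratio of 3.75 and a −log10 p of 3.79, and the nested AKAP8 peaks at chr19:15488643-15488716 and chr19:15488645-15488715 both have 3.42 and 5.50. The AKAP8L peak is a site of its own, and why it has the values of the AKAP8 peaks was not tested. Apart from the equal values, peak counts per gene in these lists include nested entries, and the merged sites count them once.

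Epithelial markers were at negative log2 fold changes in the MES knockdown, where AKAP8 was called, in 4 of 4 tested, from -0.95 to -0.31 with 0 called. Of all 9014 genes tested there, 4609 were negative. In the EPI knockdown 2 of these markers were positive and 2 negative. Of 3 mesenchymal markers tested in the MES knockdown, FN1 (0.44) and VIM (0.40) were positive and ZEB1 (-0.67) was negative, with 0 called. In the EPI knockdown 1 of these 3 was positive and 2 were negative. How the marker values relate to the AKAP values was not tested.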
